A study of Homo sapiens with 9 samples.

Results

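The 36 genes described here encode the vacuolar H+-ATPase (V-ATPase) and the lysosome it acidifies. They were given as a list of names whose rule uses no measured value, although the list was drawn up with earlier results of these data known, and all 36 were among the 19934 genes tested on 9 arrays. The list holds 15 V-ATPase genes, 4 genes of the lysosomal limiting membrane, 8 cathepsins, 5 glycosidases, 2 genes for a lipid carrier and an enzyme activator, and the transcription factors TFEB and TFE3. The arrays measured WM793TR, a human melanoma line made to carry doxycycline-regulated constructs, in 3 groups of 3 arrays. The shTWIST1 + TWIST1 cells carried an shRNA against the basic helix-loop-helix transcription factor TWIST1 together with a TWIST1 cDNA driven by a CMV promoter, the shTWIST1 cells carried that shRNA alone, and the shControl cells carried a control shRNA. All 3 groups received 100 ng/mL doxycycline for 96 h, so that no array shows cells without the drug. All groups derive from a single parental line, and the labels do not say whether the arrays of a group came from separate cultures, so that each p-value measures only the spread between these arrays, which may be technical.

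The V-ATPase is a rotary proton pump. Its V1 sector, on the cytosolic side, hydrolyses ATP, and its V0 sector, in the membrane, carries protons into the lumen. The acid lumen activates the cathepsins, which degrade proteins, and the glycosidases, which trim glycoproteins and glycolipids, while LAMP1 and LAMP2 form most of the glycoprotein coat of the lysosomal membrane. TFEB and TFE3 belong with MITF to the MiT/TFE family and are known to activate many lysosomal genes through CACGTG-type E-boxes. TWIST1 also binds E-boxes, with CATATG and CATCTG among its preferred forms.

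Promoter sequences from RefSeq (GRCh38.p14) were examined because several members moved together. A window of 300 bases, 250 before and 50 after the annotated start, was found for 25 of the 36 members. The hexamer CACGTG, which reads the same on both strands, lay in the windows of 10 of these 25 (40.0%), against 7.28% of all 27305 promoters in the same table and 8.48% of the 14686 that belong to genes tested here. The 10 were ATP6V0B, ATP6V0D1, ATP6V1G1, CTSA, CTSD, CTSF, GAA, LAMP1, MCOLN1 and NEU1. Each of them also held the longer form TCACGTG (or CACGTGA on the other strand), which contains CACGTG, against 3.76% of all promoters. CATATG lay in none of the 25 windows (3.16% of all promoters), and CATCTG or its reverse complement CAGATG in 4 of them (16.0%, against 15.0% of all promoters). CAGCTG lay in 11 of the 25 windows (44.0%, against 17.8%), and in 7 of them (28%, against 13.9%) when only the 250 bases before the start were searched. CACCTG, among the E-box forms that the study marks in the promoter of the adhesion gene CADM1, was not searched. These matches describe letters in a window and not measured binding.

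The 250 bases before the start are printed for 5 members, 5′ to 3′ on the coding strand, with each CACGTG in capitals. CTSD (chr11:1763928-1764177, minus strand), ATP6V0B (chr1:43974710-43974959, plus strand) and CTSA (chr20:45891085-45891334, plus strand) each hold the hexamer and were called in at least 1 comparison. LAMP1 (chr13:113296989-113297238, plus strand) has the most copies, 5 before its start, and was called in no comparison. NPC2 (chr14:74493306-74493555, minus strand) was called and has no copy.
CTSD: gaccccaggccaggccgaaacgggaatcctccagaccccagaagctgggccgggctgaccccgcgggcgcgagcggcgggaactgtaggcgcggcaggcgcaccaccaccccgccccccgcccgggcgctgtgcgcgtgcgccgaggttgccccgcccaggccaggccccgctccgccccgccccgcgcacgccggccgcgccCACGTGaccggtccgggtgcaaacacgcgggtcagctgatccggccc
ATP6V0B: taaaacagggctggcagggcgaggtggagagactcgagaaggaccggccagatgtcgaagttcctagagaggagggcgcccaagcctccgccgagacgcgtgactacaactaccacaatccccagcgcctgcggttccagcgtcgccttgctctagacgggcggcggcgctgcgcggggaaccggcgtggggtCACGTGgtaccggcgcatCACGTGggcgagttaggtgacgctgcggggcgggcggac
CTSA: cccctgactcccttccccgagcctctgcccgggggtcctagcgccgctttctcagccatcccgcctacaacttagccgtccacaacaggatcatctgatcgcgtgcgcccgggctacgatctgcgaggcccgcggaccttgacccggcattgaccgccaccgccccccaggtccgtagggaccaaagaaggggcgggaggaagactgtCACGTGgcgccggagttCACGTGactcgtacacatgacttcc
LAMP1: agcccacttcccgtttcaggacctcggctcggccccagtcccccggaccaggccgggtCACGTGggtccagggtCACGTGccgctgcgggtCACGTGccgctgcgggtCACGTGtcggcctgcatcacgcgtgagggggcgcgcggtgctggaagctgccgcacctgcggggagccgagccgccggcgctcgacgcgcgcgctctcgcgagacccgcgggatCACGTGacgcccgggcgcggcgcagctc
NPC2: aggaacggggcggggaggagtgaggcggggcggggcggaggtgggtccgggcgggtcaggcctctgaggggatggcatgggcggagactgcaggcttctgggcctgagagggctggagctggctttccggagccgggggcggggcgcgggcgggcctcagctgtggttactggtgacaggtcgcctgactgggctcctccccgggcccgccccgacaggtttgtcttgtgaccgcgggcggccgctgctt
Among the copies wholly before the start, the nearest begins 47 bases before it in CTSD, 39 in ATP6V0B, 25 in CTSA and 28 in LAMP1, where a further copy begins at the last base printed and runs across the start.

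TWIST1 itself was read first, as a check of the labels. Its log2 level was 8.75, 8.90 and 8.27 in shTWIST1 + TWIST1 cells, 6.18, 6.22 and 6.28 in shTWIST1 cells, and 6.77, 7.10 and 7.15 in shControl cells. The 3 groups did not overlap, and the cDNA took TWIST1 above the shControl level rather than back to it (log2 fold change 1.63, limma adjusted p = 0.00199, against shControl). The shTWIST1 arrays all lay below the shControl arrays, but the difference of -0.78 did not pass the threshold (limma adjusted p = 0.293). A gene is called here when its limma p, adjusted by Benjamini-Hochberg over all 19934 genes, is under 0.05.

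The lysosomal genes were among the brighter genes on these arrays. Their mean level was above that of the median gene for 34 of the 36, the exceptions being TFEB (percentile 36.9 of all genes) and CTSS (percentile 49.2). Signal also depends on the probes, so that these ranks and those of the markers are only a rough guide to transcript amount. Of the melanocytic markers, the neural crest factor SOX10 was among the brighter genes on every array (8.07 to 9.05), whereas the pigment genes PMEL, MLANA, TYR and TYRP1 lay between 2.23 and 2.95, near the bottom of the arrays. Of 11 macrophage and leukocyte markers, cells of that kind being rich in lysosomes, 0 lay above the array median in any group, and their summed level was 6.26 to 6.38 in shTWIST1 + TWIST1, 6.29 to 6.38 in shTWIST1 and 6.24 to 6.26 in shControl arrays on the log2 scale. The arrays correlated with one another at 0.975 to 0.994 and had medians of 4.72 to 4.78.

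The first comparison asks how the lysosomal genes stood when TWIST1 was above its control level. In shTWIST1 + TWIST1 cells against shControl cells, 5 of the 36 members fell and 0 rose. They were CTSD, LAMP2, NPC2, ATP6V0B and ATP6V1B2. Over all genes tested, 2.62% were called in this comparison, 1.55% as lower and 1.08% as higher, and among the 9967 genes brighter than the median 2.86% were called as lower. Log2 fold changes were below 0 for 23 members (63.9%, against 43.6% of all genes and 47.8% of the brighter ones), with a median of -0.18 against 0.02 over all genes. The members' median level per array overlapped between these groups. It was 8.11, 8.20 and 8.05 in shTWIST1 + TWIST1 cells and 8.33, 8.40 and 8.19 in shControl cells. The 3 shTWIST1 + TWIST1 arrays all lay below the 3 shControl arrays for 13 members (36.1%, against 8.15% of all genes and 12% of the brighter ones) and all above them for 1 member, CTSK (10.4% of all genes). Besides the 5 called members, those 13 were ATP6V0A1, ATP6V0E1, ATP6AP2, MCOLN1, CTSA, CTSZ, GUSB and TFEB. With the replicate number as a block, 6 members fell and 0 rose, NEU1 being the addition. Deviations of same-numbered arrays correlated at only 0.03, 0.22 and 0.11 between these groups. Of all genes, 4.02% were then called, 2.44% as lower and 1.58% as higher. In bulk RNA of this kind, fewer cells with a transcript and less transcript per cell cannot be told apart.

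The second comparison sets the cDNA against the shRNA alone, with the shRNA in both groups. In shTWIST1 + TWIST1 cells against shTWIST1 cells, ATP6V1B2, LAMP2, CTSA and CTSD fell and CTSK rose (3.42% of all genes were called, 1.77% as lower and 1.65% as higher). Log2 fold changes were below 0 for 26 members (72.2%, against 48.1% of all genes and 42.7% of the brighter ones). The members' median was -0.15, against 0.01 over all genes. Their median level per array, 8.21, 8.36 and 8.07 in shTWIST1 cells, overlapped that of the shTWIST1 + TWIST1 arrays. The groups did not overlap for 11 members that were lower (30.6%, against 8.86% of all genes and 10.4% of the brighter ones). They did not overlap for 4 that were higher (11.1%, against 9.77% and 13.0%). Deviations of same-numbered arrays of these groups correlated at 0.14, 0.30 and 0.30. With the replicate number as a block 7 members fell and 1 rose, the block adding NPC2, ATP6AP2, HEXA and NEU1 and losing LAMP2. Of all genes, 5.40% were called with the block, 2.81% as lower and 2.59% as higher. The comparisons with shControl and with shTWIST1 use the same 3 shTWIST1 + TWIST1 arrays, so that their lists do not count as separate evidence.

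The third comparison, of shTWIST1 with shControl cells, gave 1 called member, ATP6V0B, which fell (0.0652% of all genes were called, 0.0602% as lower and 0.00502% as higher, 13 in all). Log2 fold changes were below 0 for 20 members (55.6%, against 44.5% of all genes and 56.4% of the brighter ones). The members' median was -0.02, against 0.02 over all genes. The shTWIST1 arrays lay below the shControl arrays without overlap for 6 members, ATP6V0B, ATP6V0E1, LAMP2, CTSF, CTSK and CTSS. These were 16.7%, against 6.18% of all genes and 10.3% of the brighter ones. They lay above the shControl arrays for ATP6V1B2 alone (5.66% of all genes and 4.64% of the brighter ones). This comparison and the first share the shControl arrays.

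**Figure D1:**
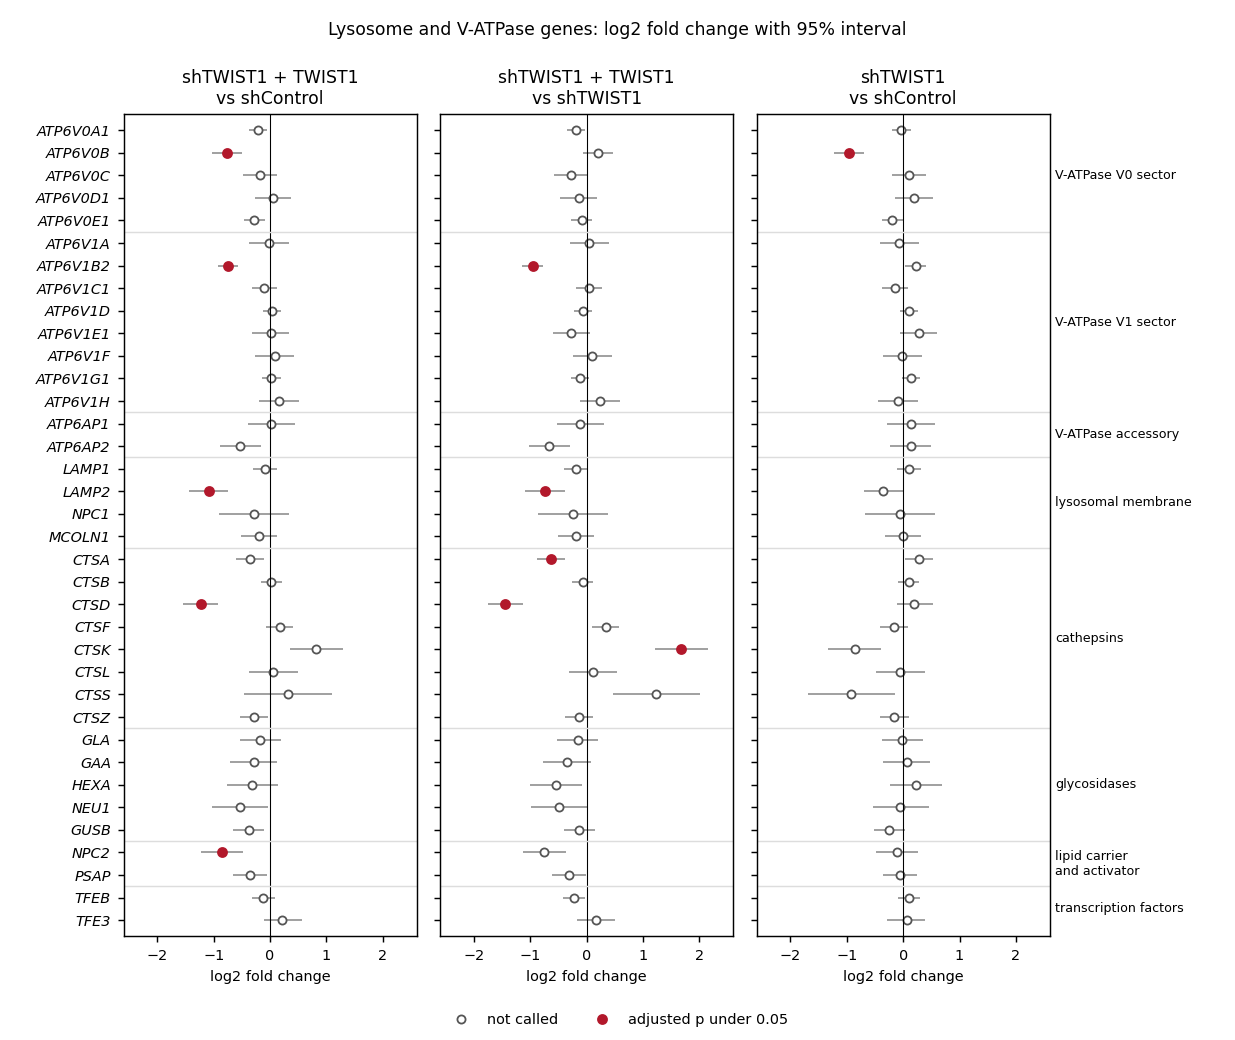
Log2 fold change (horizontal axis) of each of the 36 lysosomal and V-ATPase genes (rows, by role) in the 3 comparisons (points, with 95% confidence intervals from the limma fit; filled points are called at an adjusted p under 0.05). CTSD, LAMP2, NPC2, ATP6V0B and ATP6V1B2 stand at the low end when shTWIST1 + TWIST1 is set against shControl, and CTSK at the high end when it is set against shTWIST1.

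Within the V0 sector, ATP6V0B, a proteolipid subunit of the membrane ring, was the member that changed. Its level was 8.35, 8.18 and 8.23 in shTWIST1 + TWIST1 cells, 8.09, 8.0 and 8.06 in shTWIST1 cells and 9.27, 8.96 and 8.81 in shControl cells. Both groups that carry the TWIST1 shRNA lay below every shControl array, although TWIST1 averaged 8.64 in one of them and 6.23 in the other. ATP6V0B stood at 59.0% of the shControl level in shTWIST1 + TWIST1 cells (log2 fold change -0.76 ± 0.12 (SE), limma adjusted p = 0.0131) and at 51.3% in shTWIST1 cells (-0.96, adjusted p = 0.0419). The second of these calls rested on the full set of arrays, since it was lost when any 1 array other than shControl replicate 3 was left out (adjusted p 0.0357 to 0.216). Between shTWIST1 + TWIST1 and shTWIST1 cells the difference was 0.20, with a 95% interval of -0.06 to 0.47 and an adjusted p of 0.423.

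The other V0 members passed no threshold. ATP6V0A1, the large membrane subunit that anchors the stator, was 7.67, 7.69 and 7.65 in shTWIST1 + TWIST1 cells, 7.80, 7.95 and 7.81 in shTWIST1 cells and 7.86, 7.84 and 7.97 in shControl cells, lower without overlap in the first group but by only 0.22 against shControl (adjusted p = 0.188). ATP6V0E1, a small membrane subunit, differed by -0.28 in that comparison (adjusted p = 0.160). ATP6V0C, the main proteolipid of the ring, and ATP6V0D1, which couples the ring to the central stalk, differed by -0.18 and 0.05.

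In the V1 sector 1 of the 8 members was called, ATP6V1B2, the widely expressed form of the nucleotide-binding B subunit. Its level was 8.34, 8.52 and 8.54 in shTWIST1 + TWIST1 cells, against 9.42, 9.47 and 9.40 in shTWIST1 cells and 9.32, 9.16 and 9.16 in shControl cells. Every shTWIST1 + TWIST1 array was thus below all 6 others. ATP6V1B2 fell to 59.7% of the shControl level (-0.74 ± 0.08 (SE), limma adjusted p = 0.00305) and to 51.4% of the shTWIST1 level (-0.96, adjusted p = 0.000696), and both calls held whichever array was left out (adjusted p 0.00711 to 0.0146 and 0.00156 to 0.00627). The shTWIST1 cells differed from shControl cells by 0.22 (adjusted p = 0.669).

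The partner of the B subunit in the catalytic head, ATP6V1A, differed by -0.02 (95% interval -0.37 to 0.33) between shTWIST1 + TWIST1 and shControl cells. The remaining V1 members were the stalk and regulatory subunits ATP6V1C1, ATP6V1D, ATP6V1E1, ATP6V1F, ATP6V1G1 and ATP6V1H. Their differences from shControl ran from -0.10 for ATP6V1C1 to 0.15 for ATP6V1H, and none was called in any comparison. Their intervals leave room for moderate differences, such as -0.59 to 0.06 for ATP6V1E1 against shTWIST1 cells and -0.20 to 0.51 for ATP6V1H against shControl. The median over all 15 V-ATPase members was -0.02 in shTWIST1 + TWIST1 against shControl cells, and over the 21 other members it was -0.29; the difference between these medians was not tested.

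The accessory proteins help to assemble the pump and bring it to its compartment. ATP6AP2, also known as the prorenin receptor, had levels of 7.73, 8.20 and 8.0 in shTWIST1 + TWIST1 cells, 8.81, 8.71 and 8.40 in shTWIST1 cells and 8.57, 8.65 and 8.29 in shControl cells. The first group lay below both others on every array. Its differences of -0.53 from shControl (limma adjusted p = 0.161) and -0.66 from shTWIST1 (adjusted p = 0.0660) did not pass, although the second did with the replicate block (adjusted p = 0.0429). ATP6AP1 differed by 0.02 and -0.11.

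Of the membrane genes, LAMP2, whose product coats the lysosome and in one isoform serves chaperone-mediated autophagy, had the larger change. Its level was 8.84, 8.93 and 9.26 in shTWIST1 + TWIST1 cells, 9.75, 9.83 and 9.68 in shTWIST1 cells and 10.41, 9.96 and 9.94 in shControl cells. The 3 groups were separate, with the shTWIST1 arrays in between. LAMP2 fell to 46.8% of the shControl level (-1.09 ± 0.15 (SE), limma adjusted p = 0.00899) and to 59.8% of the shTWIST1 level (-0.74, adjusted p = 0.0377). The second call was lost with the replicate block (adjusted p = 0.0526) and in 7 of the 9 fits that left out 1 array (adjusted p 0.0210 to 0.119), whereas the first held in all 9. One probe set stands for each gene, so that LAMP2 isoforms were not told apart.

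LAMP1, its closest relative in the list, changed less. Its level was 8.41, 8.51 and 8.50 in shTWIST1 + TWIST1 cells, 8.77, 8.63 and 8.60 in shTWIST1 cells and 8.73, 8.54 and 8.42 in shControl cells. The first and last of these overlap, and LAMP1 differed from shControl by -0.09 (95% interval -0.30 to 0.12, limma adjusted p = 0.736). Its shTWIST1 + TWIST1 arrays lay below the shTWIST1 arrays without overlap, with a difference of -0.19 (-0.40 to 0.02, limma adjusted p = 0.345). NPC1, the membrane exporter of lysosomal cholesterol, and MCOLN1, a calcium channel, differed by -0.29 and -0.19, and neither was called. NPC1 was scattered among the shTWIST1 + TWIST1 arrays, at 6.50, 7.63 and 6.90.

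**Figure D2:**
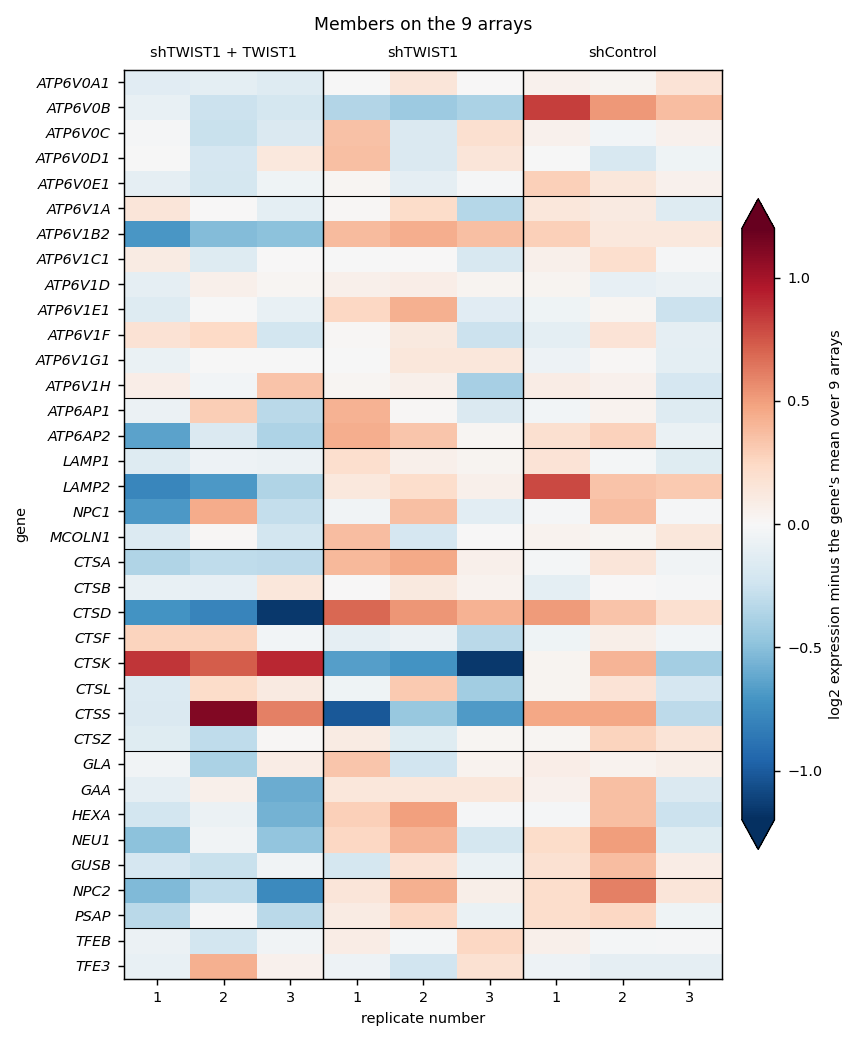
Level of each of the 36 members on each of the 9 arrays, coloured by its difference in log2 units from that gene's mean over all arrays and ordered by role. CTSD, LAMP2, NPC2 and ATP6V1B2 are below their mean on all 3 shTWIST1 + TWIST1 arrays, CTSK is above its mean on all 3, and ATP6V0B is above its mean on the shControl arrays alone.

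Among the cathepsins, the main aspartic protease of the lysosome, CTSD, gave the largest decrease of the 36 members. Its level was 7.82, 7.75 and 7.38 in shTWIST1 + TWIST1 cells, against 9.23, 9.07 and 8.96 in shTWIST1 cells and 9.05, 8.88 and 8.73 in shControl cells. Every array of the first group was below all 6 others. CTSD fell to 42.5% of the shControl level (-1.23 ± 0.14 (SE), limma adjusted p = 0.00332) and to 37.0% of the shTWIST1 level (-1.44, adjusted p = 0.00128), and both calls held in all 9 fits that left out 1 array. Between shTWIST1 and shControl cells it differed by 0.20 (95% interval -0.11 to 0.52).

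CTSA, a serine carboxypeptidase that also protects beta-galactosidase and neuraminidase, was 9.95, 10.01 and 10.00 in shTWIST1 + TWIST1 cells, 10.70, 10.77 and 10.38 in shTWIST1 cells and 10.29, 10.46 and 10.27 in shControl cells. The first group was lowest throughout. CTSA fell to 64.4% of the shTWIST1 level (-0.64 ± 0.11 (SE), limma adjusted p = 0.0186), a call lost without shTWIST1 replicate 1 (adjusted p = 0.0821), without shTWIST1 + TWIST1 replicate 1 (0.0643) or without shTWIST1 + TWIST1 replicate 3 (0.0559). Its difference from shControl was -0.36 (adjusted p = 0.164).

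CTSK, a cysteine protease known for collagen degradation by osteoclasts, went the other way. Its level was 8.81, 8.68 and 8.86 in shTWIST1 + TWIST1 cells, 7.29, 7.24 and 6.80 in shTWIST1 cells and 7.99, 8.36 and 7.55 in shControl cells. The 3 groups did not overlap and stood in the order of their TWIST1 levels. CTSK was 3.20-fold higher in shTWIST1 + TWIST1 than in shTWIST1 cells (log2 1.68 ± 0.20 (SE), limma adjusted p = 0.00413), and this call held in all 9 fits that left out 1 array. The steps on either side of shControl, 0.82 for shTWIST1 + TWIST1 and -0.86 for shTWIST1, did not pass (adjusted p = 0.0913 and 0.377). Of 5 osteoclast markers, 0 lay above the array median in any group and 0 were called. At the 2.62% and 3.42% of all genes called against shControl and shTWIST1, a list of 5 would hold few or no calls.

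CTSS, a cysteine protease of antigen-presenting cells, had low and scattered values of 4.51, 5.80 and 5.29 in shTWIST1 + TWIST1 cells, 3.67, 4.23 and 4.01 in shTWIST1 cells and 5.15, 5.15 and 4.37 in shControl cells. Its shTWIST1 arrays were below all others. The difference of 1.23 between shTWIST1 + TWIST1 and shTWIST1 cells was not called (limma adjusted p = 0.0997), and 1 array decided this, as it was 1.58 with an adjusted p of 0.0423 without shTWIST1 + TWIST1 replicate 1. The abundant cysteine cathepsins CTSB and CTSL differed from shControl by 0.02 (95% interval -0.16 to 0.21) and 0.06 (-0.37 to 0.49), CTSF by 0.17 and CTSZ by -0.29, with no call in any comparison.

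**Figure D3:**
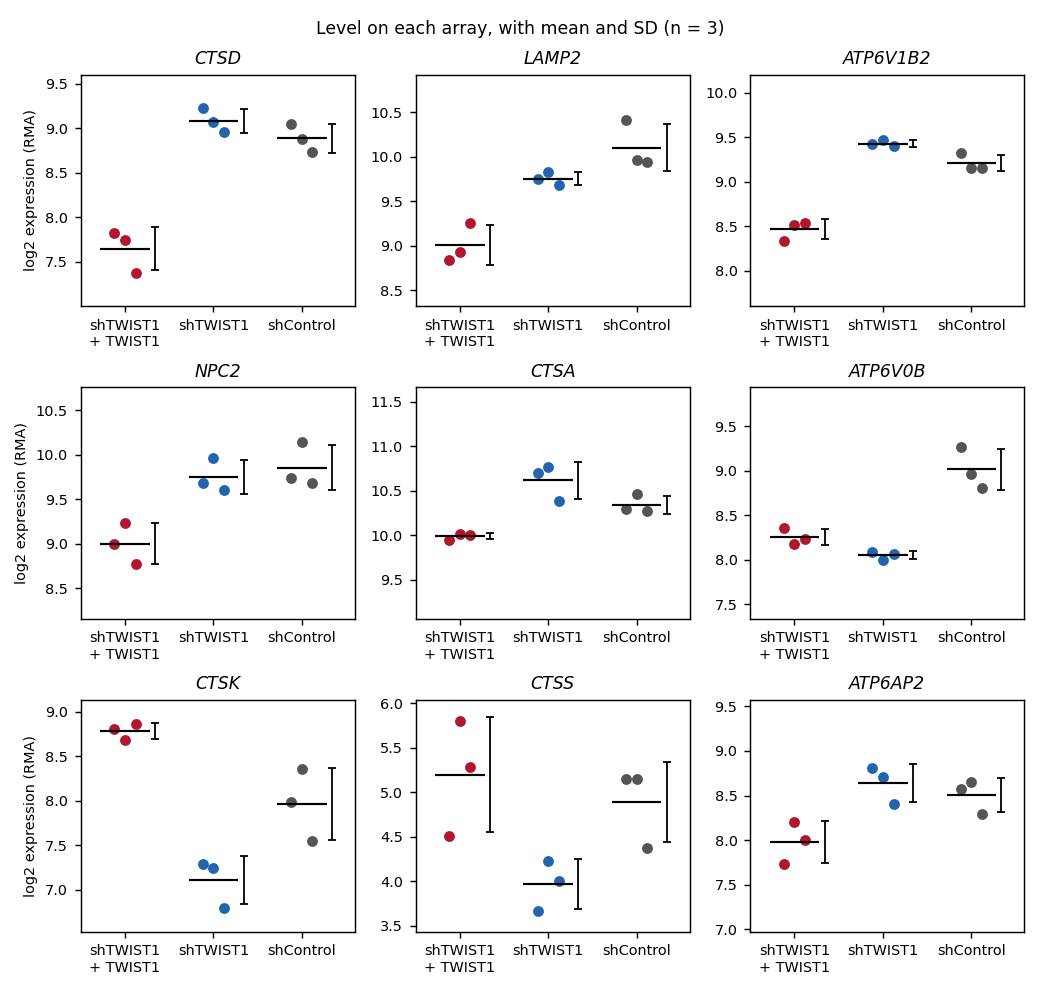
Level (log2) of 9 members on each array (points) with the mean (line) and SD (bracket) of each group, in the order shTWIST1 + TWIST1, shTWIST1, shControl. CTSD, LAMP2, ATP6V1B2 and NPC2 are lowest in shTWIST1 + TWIST1 cells, ATP6V0B is low in both groups with the TWIST1 shRNA, and CTSK is highest in shTWIST1 + TWIST1 and lowest in shTWIST1 cells.

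The glycosidases passed no threshold without the replicate block, yet all 5 had log2 fold changes below 0 in both comparisons of shTWIST1 + TWIST1 cells (median -0.32 against shControl and -0.35 against shTWIST1). HEXA, the alpha subunit of hexosaminidase A, was 8.43, 8.58 and 8.09 in shTWIST1 + TWIST1 cells, 8.94, 9.15 and 8.64 in shTWIST1 cells and 8.64, 9.02 and 8.40 in shControl cells. Each same-numbered pair differed by nearly the same amount between the first of these and shTWIST1 cells (-0.51, -0.57 and -0.55), and the difference of -0.54 was called with the block (limma adjusted p = 0.0112) but not without it (0.209). NEU1, the lysosomal neuraminidase, was 6.44, 6.89 and 6.46 in shTWIST1 + TWIST1 cells, 7.18, 7.34 and 6.72 in shTWIST1 cells and 7.16, 7.44 and 6.79 in shControl cells. Its groups overlapped, and its difference of -0.49 from shTWIST1 cells was likewise called only with the block (adjusted p = 0.0464, against 0.298 without it). GLA, GAA and GUSB, which cleave alpha-galactose, alpha-glucose and glucuronic acid residues, differed from shControl by -0.17, -0.29 and -0.38.

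NPC2, the soluble carrier that hands cholesterol to NPC1, was 9.0, 9.23 and 8.77 in shTWIST1 + TWIST1 cells, 9.68, 9.96 and 9.60 in shTWIST1 cells and 9.74, 10.14 and 9.68 in shControl cells. The first group lay below all other arrays. NPC2 fell to 55.3% of the shControl level (-0.86 ± 0.17 (SE), limma adjusted p = 0.0363), though this call was lost in 7 of the 9 fits that left out 1 array (adjusted p 0.0344 to 0.104). Against shTWIST1 cells the difference was -0.75, with an adjusted p of 0.0507 without and 0.00346 with the replicate block. PSAP, the precursor of the saposins that help glycosidases reach their lipids, differed by -0.36 from shControl (adjusted p = 0.251) and -0.31 from shTWIST1 cells (0.273).

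The transcription factors of the list showed no called difference. TFEB was 3.59, 3.44 and 3.62 in shTWIST1 + TWIST1 cells, 3.75, 3.64 and 3.91 in shTWIST1 cells and 3.72, 3.64 and 3.65 in shControl cells. The first group lay just below the others, with a difference of -0.12 from shControl and an interval of -0.32 to 0.08. Its difference from shTWIST1 cells was -0.22, with an interval of -0.42 to -0.02 (limma adjusted p = 0.257). TFE3 was 5.33, 5.85 and 5.47 in shTWIST1 + TWIST1 cells, 5.36, 5.19 and 5.60 in shTWIST1 cells and 5.36, 5.31 and 5.31 in shControl cells, a difference of 0.22 from shControl (limma adjusted p = 0.554) with overlapping groups. MITF, the third of the family and the master regulator of pigmentation, was 4.95, 5.28 and 5.32 in shTWIST1 + TWIST1 cells, 5.48, 5.49 and 5.40 in shTWIST1 cells and 5.37, 5.54 and 5.49 in shControl cells. It was lower in the first group without overlap, but its differences of -0.28 from shControl and -0.27 from shTWIST1 cells were not called (adjusted p = 0.259 and 0.231). Only transcript levels were measured, whereas TFEB and TFE3 are known to be controlled largely by phosphorylation and nuclear entry.

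Set against the promoters, the 10 members with CACGTG had a median of -0.24 in shTWIST1 + TWIST1 against shControl cells, with CTSD and ATP6V0B called. The 15 matched members without it had a median of -0.17, with NPC2 called, and the 11 members with no promoter entry, LAMP2, ATP6V1B2 and CTSK among them, a median of -0.10. Against shTWIST1 cells these medians were -0.19, -0.16 and -0.07. The differences between these medians were not tested.

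**Figure D4:**
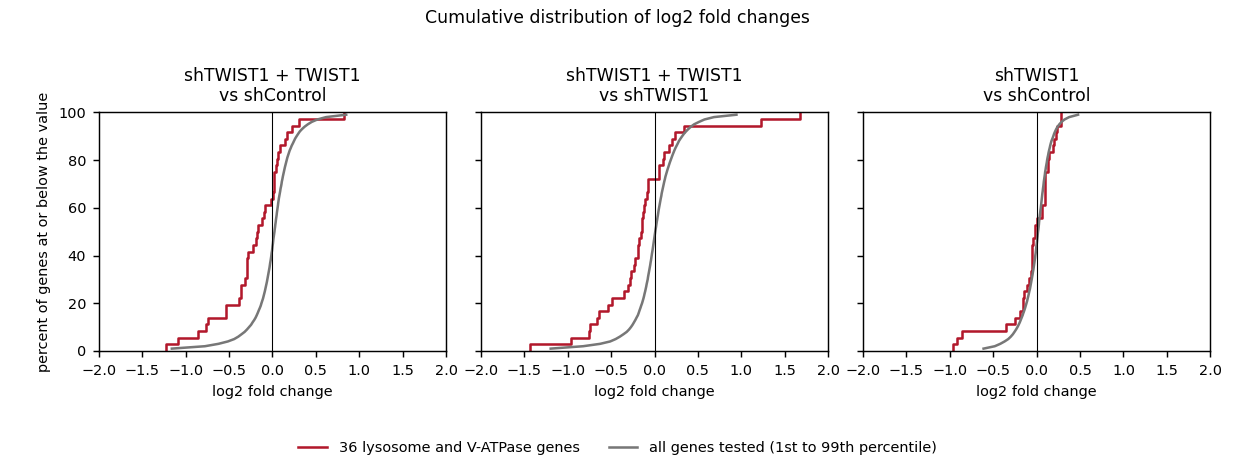
Cumulative distribution of log2 fold changes (horizontal axis) as the percent of genes at or below each value (vertical axis), for the 36 members (red) and for all 19934 genes tested between their 1st and 99th percentiles (grey), in the 3 comparisons. The members' medians, -0.18, -0.15 and -0.02, lie below those of all genes, 0.02, 0.01 and 0.02, and the red line runs left of the grey line over most of its height in the comparisons with shTWIST1 + TWIST1. The members' median level per array overlapped between the groups.

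Wider lists of the same pathway were counted over the listed genes that were among the 19934 tested. These were 13 of 17 other V-ATPase subunits, 29 of 38 other hydrolases, 31 of 34 sorting genes, 25 of 26 nutrient sensing genes and 22 of 23 melanosome genes. The other wider lists were complete. Over all genes tested, 2.62% were called in shTWIST1 + TWIST1 against shControl, 3.42% against shTWIST1 and 0.0652% in shTWIST1 against shControl. Of 13 other V-ATPase subunits, among them tissue-restricted forms, 0 were called in any comparison (at an unadjusted limma p under 0.05, 1 was lower and 0 higher against shControl). Of 29 other lysosomal hydrolases, 22 (75.9%, against 43.6% of all genes) had log2 fold changes below 0 against shControl, with a median of -0.10. In that comparison 1 was called, SMPD1, the acid sphingomyelinase (3.45% of the list, against 2.62% of all genes). SMPD1 was 6.13, 6.35 and 6.31 in shTWIST1 + TWIST1 cells, 6.95, 6.78 and 6.63 in shTWIST1 cells and 6.95, 7.0 and 6.72 in shControl cells. It fell in both comparisons of the first group, by 0.62 against shControl and by 0.52 against shTWIST1 (limma adjusted p = 0.0295 and 0.0489). With the replicate block 5 of the 29 fell against shTWIST1, where 2.81% of all genes fell with the block. The additions were LIPA, the acid lipase (-0.94, adjusted p = 0.0181), GALC, the galactosylceramidase (-0.81, 0.00878), ASAH1, the acid ceramidase (-0.73, 0.0179), and the arylsulfatase ARSG (-0.68, 0.0245). Against shControl 4 fell with the block, SMPD1, LIPA, GALC and ASAH1, and 0 rose (2.44% of all genes fell and 1.58% rose). Of 14 other lysosomal proteases, TPP1, a tripeptidyl peptidase, was the single call, at 7.62, 8.13 and 7.58 in shTWIST1 + TWIST1 against 8.94, 9.04 and 8.49 in shTWIST1 cells (-1.05, adjusted p = 0.0282).

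Of 38 other genes of the lysosomal membrane, CD9, a tetraspanin, fell against shControl (-0.90, limma adjusted p = 0.0119). It was the single call, 2.63% of the list against 2.62% of all genes. Against shTWIST1 cells, 3 rose, namely the nucleoside transporter SLC29A3 (0.72), the heparan sulfate acetyltransferase HGSNAT (0.58) and the cobalamin transport protein ABCD4 (0.49). CD68, a LAMP-family glycoprotein, fell in that comparison (-0.79, adjusted p = 0.0351), a call lost with the replicate block (0.0526), which added the channel gene TPCN1 (0.71, adjusted p = 0.0291) and CD9 (-0.52, 0.0148). Without the block 10.5% of the list was called in this comparison, against 3.42% of all genes, and lysosomal genes outside the 36 moved in both directions.

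None of 31 genes that sort cargo to lysosomes, 25 genes of nutrient sensing and MiT/TFE control, and 14 cathepsin inhibitors was called in any comparison. Of all genes, 2.62%, 3.42% and 0.0652% were called in the 3 comparisons. At those shares lists of this size would hold few or no calls. Against shControl, the first of these lists had 2 genes at an unadjusted limma p under 0.05 (2 higher, 0 lower), the second 5 (3 higher, 2 lower) and the third 3 (2 higher, 1 lower). With the replicate block, 2 genes of the second list were called against shTWIST1 cells, PPP3CB, a catalytic subunit of calcineurin (0.40, adjusted p = 0.0437), and FNIP1, a folliculin partner (-0.40, 0.0381). Of 33 autophagy genes, the kinase gene ULK2 rose in shTWIST1 + TWIST1 cells against shControl (0.58, adjusted p = 0.0226) and against shTWIST1 (0.74, adjusted p = 0.00624), and ATG7, the E1-like enzyme of autophagosome formation, rose against shTWIST1 alone (0.80, adjusted p = 0.0486; the difference between these comparisons was not tested). The block added RB1CC1, a subunit of the ULK complex, against shTWIST1 (0.42, adjusted p = 0.0478). Without the block, calls made up 3.03% of this list against shControl and 6.06% against shTWIST1 (2.62% and 3.42% of all genes). No autophagy gene was called as lower, with or without the block (1.55% and 1.77% of all genes were, without it). At an unadjusted limma p under 0.05, 3 were higher and 2 lower against shControl, and 6 higher and 3 lower against shTWIST1.

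The melanosome is a lysosome-related organelle. Of 22 melanosome genes, HPS5, a subunit of a trafficking complex, fell against both shControl and shTWIST1 cells (-0.84 each, limma adjusted p = 0.0122 and 0.0108). Calls made up 4.55% of the list against shControl and 13.6% against shTWIST1 (2.62% and 3.42% of all genes). GPNMB, a membrane glycoprotein, was 8.43, 9.19 and 7.76 in shTWIST1 + TWIST1 against 10.23, 10.84 and 9.73 in shTWIST1 cells (-1.81, adjusted p = 0.0479), and SYTL2 fell as well in that comparison (-0.93, adjusted p = 0.0361), to which the block added LYST (-0.86, adjusted p = 0.0285). MHC class II molecules load peptide in late endosomal compartments where CTSS trims the invariant chain. Of 12 such genes 8 (66.7%) fell against shControl and 7 (58.3%) against shTWIST1 (9 with the block), where 1.55% and 1.77% of all genes fell without the block. HLA-DRA was at 7.52, 6.43 and 6.21 in shTWIST1 + TWIST1 cells, 11.23, 11.12 and 10.74 in shTWIST1 cells and 11.29, 11.14 and 10.87 in shControl cells. HLA-DRA differed from shControl by -4.38, more than any of the 36 members in that comparison.

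Some markers of other cell types moved with the groups. Of 6 fibroblast markers, PDGFRA was called as higher in shTWIST1 + TWIST1 cells against shControl, and PDGFRA and COL3A1 against shTWIST1, where LUM was called with the replicate block alone (1.93, adjusted p = 0.0169, against 0.107 without it). The summed level of the list was 8.70 to 9.59 in shTWIST1 + TWIST1, 7.42 to 7.67 in shTWIST1 and 7.88 to 8.08 in shControl arrays. COL1A1 (4.43 to 4.70) and COL1A2 (3.16 to 3.44) were alike on all 9 arrays. DCN was 6.68 on shTWIST1 + TWIST1 replicate 1 but at most 3.50 on any other array, and LUM was 7.85 there. Without that array, CTSD still fell against shControl (-1.32, limma adjusted p = 0.00839), as did ATP6V1B2 (-0.68, 0.0102), LAMP2 (-1.01, 0.0344) and ATP6V0B (-0.81, 0.0318), whereas NPC2 was not called (-0.86, 0.104), and CTSK remained higher than in shTWIST1 cells (1.66, 0.0200). S100B, a melanocytic marker, was 8.31, 7.80 and 8.25 in shTWIST1 + TWIST1 cells. It was 10.03, 9.77 and 9.86 in shTWIST1 cells and 10.85, 10.31 and 10.34 in shControl cells. S100B was called as lower in shTWIST1 + TWIST1 cells in both comparisons, and the other 6 melanocytic markers analysed were not called. At an unadjusted limma p under 0.05, 3 of the 7 were lower and 0 higher against shControl, and 2 lower and 0 higher against shTWIST1. SOX10 was 8.46, 8.62 and 8.07 in shTWIST1 + TWIST1 cells, below the shControl values of 9.05, 8.76 and 8.83. It overlapped the shTWIST1 values of 8.77, 8.41 and 8.70. The summed level of the list was lowest on the shTWIST1 + TWIST1 arrays, without overlap, but this sum of unlogged levels is set mostly by the bright S100B and SOX10. The median log2 fold change of the 7 was -0.03 against shControl and -0.01 against shTWIST1, with 3 of the 7 above 0 in each. The part of these markers in the lysosomal differences was not tested. Keratinocyte and endothelial markers, 6 of each, gave 0 calls in any comparison without the block (at an unadjusted limma p under 0.05, 1 endothelial gene was higher and 1 lower against shTWIST1), and with it the endothelial marker KDR was called as lower against shTWIST1 (-0.72, adjusted p = 0.0228).

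The calls depended on the fit in part. In fits of only the 6 arrays compared, CTSD and ATP6V1B2 were the members still called against shControl, and CTSD, ATP6V1B2 and CTSK against shTWIST1. By the 2-sided unequal-variance test that the study's methods name for other assays, none of the 36 passed after adjustment over all genes, while at an unadjusted p of 0.05 10 members were lower and 0 higher against shControl, where 3.84% of all genes were lower and 4.13% higher.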

How the data were processed

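Total RNA was amplified, biotin labelled and hybridised to 9 arrays, 3 per group. The authors deposited log2 expression values made by RMA (version not given in the submitters' processing notes), with 1 probe set per Entrez gene, for 20673 probe sets. Of these, 738 were paired with no single gene symbol in the platform annotation and were left out, 19934 genes were tested, and 19913 matched RefSeq by gene ID, the 36 members among them. No gene was filtered for low level. Scanner files and detection calls were not used here, so that the number of arrays, not a read depth, limits the precision.

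The arrays labelled as basal were read as the control shRNA group, since the series' design names 3 populations. Those labelled as TWIST1 overexpression were likewise read as the cells with both the TWIST1 shRNA and the cDNA. Their labels do not name the shRNA. Groups were compared with limma 3.58.1 (R 4.3.3) in 1 fit of 9 arrays without a block, with moderated statistics and Benjamini-Hochberg adjustment over 19934 genes. The fit was tested on simulated data. Promoters were read with Python 3.11.15 and pandas 2.3.3, and figures drawn with matplotlib 3.10.9. The members and all lists were chosen with earlier results of these data known. Genes of the wider and marker lists that were not among the genes tested were left out of the counts. Per-array values were given for TWIST1, members called in any comparison, the member with the largest change of each role in shTWIST1 + TWIST1 against shControl, members with an absolute log2 fold change of at least 0.5, TFEB, TFE3 and MITF; of the wider lists, up to 3 called genes per direction were named. ATP6V0A1 and LAMP1, and genes of the wider lists called with the replicate block alone, were added after their values were seen.

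Replicate numbers come from the labels. Deviations from the group means correlated between same-numbered arrays at 0.14, 0.30 and 0.30 for shTWIST1 + TWIST1 with shTWIST1, at 0.32, 0.51 and 0.29 for shTWIST1 with shControl, and at 0.03, 0.22 and 0.11 for shTWIST1 + TWIST1 with shControl, so that the numbers were taken to pair the arrays in the first and second of these only. The alternatives were quantile normalization, median centring, removal of genes under the 30th percentile, array weights, an eBayes prior that was robust and followed a trend, the replicate block, fits of 6 arrays, the methods' t-test, every probe set, a minimum absolute log2 fold change of 0.5 and leaving out each array.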

Additional observations from a re-analysis of the deposited data

How the results depend on the processing

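The number of members called was 5 for shTWIST1 + TWIST1 against shControl, 5 for shTWIST1 + TWIST1 against shTWIST1 and 1 for shTWIST1 against shControl. Fits of only the 6 arrays compared called 2, 3 and 0, and the methods' t-test after Benjamini-Hochberg adjustment called 0, 0 and 0 (at an unadjusted 0.05, 10, 8 and 3 members, and 1588, 1669 and 804 of all genes, or 7.97%, 8.37% and 4.03%). With the replicate block 6, 8 and 1 members were called. In the comparison of shTWIST1 + TWIST1 with shControl, NEU1 was the addition (limma adjusted p = 0.0414), and beside the changes given in the report the block changed no other call of a member. Among the wider lists it added TPP1, LIPA, GALC, ASAH1, GLMP, TPCN1, GPNMB, HLA-DRB1 and the marker LUM in that comparison (adjusted p 0.00357 to 0.0455). Fits without 1 of the 9 arrays called 4 to 5, 3 to 6 and 0 to 1, the lowest of the second, 3, without shTWIST1 replicate 1, and the 1 of the third only without shControl replicate 3. All other alternatives gave 5, 5 to 6 and 1. The members' median log2 fold change stayed between -0.20 and -0.13, between -0.19 and -0.12, and between -0.04 and 0.06, a shift smaller than the 0.115 SD of the members' median between arrays of a group. That SD is not far below the size of the medians reported for the first and second comparison, -0.18 and -0.15. Over all genes, 523, 682 and 13 were called; the block gave 801 and 1076 in the first and second comparison, fits of 6 arrays 260 and 353, array weights 25 in the third, the methods' t-test 3, 2 and 0, and leaving out 1 array 264 to 523, 295 to 887 and 8 to 14. Of 741 values for single members under an alternative, 683 kept their side of the threshold, 44 fell below it, 14 passed it and 0 changed sign while called. Some of the 683 that were not called did change sign. NEU1 in shTWIST1 against shControl, for example, ran from -0.22 to 0.13 when 1 array was left out. The count of 10 members with CACGTG was the same in the 250 bases before the start. Where a count changed, the cause was not tested, except that a fit of 6 arrays has fewer arrays.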
